A study of Mus musculus with 42 samples.

Results

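The tRNA-seq libraries of this series counted reads on 242 reference sequences, and 22 of these have a name without the prefix tRNA-. The members described here are those 22 references: 7 whose name contains ribosomal_RNA and 15 small nuclear or nucleolar RNAs with U names, called U RNAs below. They were chosen by name alone, and each is given in RPM, its reads scaled to the library total, and as its share of the reads on the 22. The libraries came from naive CD4 T cells of the spleen of wild type mice, isolated at 8 weeks of age. The cells were activated on plates coated with anti-CD3 (5 µg/ml) together with anti-CD28 (2 µg/ml), antibodies to the T cell receptor complex and to a receptor that co-stimulates it. RNA below 200 nt was treated with AlkB, a demethylase that removes methyl groups that block reverse transcription, and 2 libraries were made at each of 0, 6, 18 and 48 h, where 0 h is the resting cell. Nothing in the labels says that the 2 libraries of a time came from separate animals, so every p-value reflects only how far these samples vary, and that variation may be technical. The files hold no messenger RNA, and the labelled cell type could not be checked in them against its markers. RNA-seq of CD4 T cells with a conditional knockout of Trmt61a and of wild type cells is used near the end. The part used had 2 libraries per genotype at each of 0, 3, 6 and 48 h, from mice of the same age.

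Most U RNAs of this set work in the spliceosome, the machine that removes introns from messenger RNA precursors. U1 marks the start of the intron, U2 the branch point, U5 holds the exon ends and U6 forms part of the catalytic centre, while U11 takes the place of U1 on the rare minor class of introns. U3 is a box C/D small nucleolar RNA needed to cut the ribosomal RNA precursor, and U7 directs the cut that ends histone messenger RNAs. RNA polymerase II makes U1, U2, U3, U5, U7 and U11, RNA polymerase III makes U6 and 5S ribosomal RNA, and RNA polymerase I makes the 45S precursor from which 18S, 5.8S and 28S are cut. In activated T cells, ribosome production is known to increase ahead of division.

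Each library held between 67261117 and 92701839 reads, of which 99.6% to 99.8% lay on the references. The members ran from Rn45s, the 45S reference, at 17799 to 94561 RPM, down to Rnu73b, a small nucleolar RNA, at 3.31 to 45.3 RPM. Counting error was therefore small beside the spread between replicates for most members (biological coefficient of variation 0.222 over all references). Some members are near-identical copies that the counting could split. Within a library, the highest of the 4 Rnu3b copies was 1.01 to 1.09 times the lowest, n-R5s113 was 0.994 to 0.998 times n-R5s146, and Rnu1b1 was 0.995 to 1.02 times Rnu1b2. The sequence of 18S, 5.8S and 28S also lies inside the 45S transcript. Values of single copies are therefore uncertain, how reads that match several references were treated is not given in the sources used here, and sums over 10 families (U1, U2, U3, U5, U6, U7, U11, U73b, 5S, and the 45S unit of Rn45s, Rn28s1, Rn18s and Rs5-8s1) are given beside them.

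The first comparison asks how much of each library these RNAs took up at rest and after stimulation. Non-tRNA references held 33.1% and 33.0% of the reads in the 2 resting libraries, 12.6% and 16.7% at 6 h, 10.3% and 8.19% at 18 h, and 9.43% and 12.5% at 48 h. Both resting libraries lay above every stimulated one, and this held for both classes of RNA. Ribosomal references summed to 209048 and 216300 RPM at 0 h, 77904 and 107982 at 6 h, 71335 and 57680 at 18 h, and 64091 and 89568 at 48 h. U RNA references summed to 121928 and 113811 RPM at 0 h, 48060 and 59305 at 6 h, 31658 and 24217 at 18 h, and 30171 and 35220 at 48 h. The ratio of the 48 h to the 0 h mean was 0.361 for ribosomal RNA and 0.277 for U RNA. An exact permutation test of the differences among the 4 times, over all 2520 arrangements of the 8 libraries, gave p = 0.0286 for the non-tRNA share, 0.0571 for ribosomal RNA and 0.019 for U RNA. None passed after Benjamini-Hochberg adjustment over the 4 sums tested (adjusted p = 0.0571, 0.0762 and 0.0571), and between any 2 times the exact test cannot go below 0.333.

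**Figure D1:**
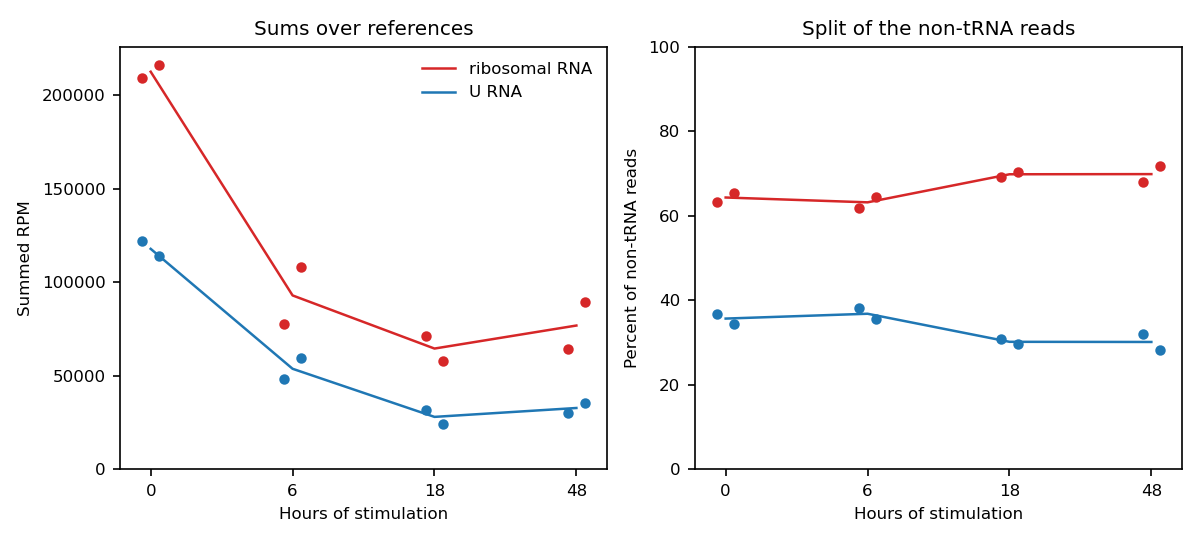
Left, summed RPM of the 7 ribosomal and the 15 U RNA references by hours of stimulation. Right, the split of the non-tRNA reads between the 2 classes in percent. Points are libraries and lines join the means of 2. On the left both resting libraries lie above the 6 stimulated ones in each class, and on the right the 18 and 48 h libraries lie above the earlier ones for ribosomal RNA.

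Within the non-tRNA reads, ribosomal references held 63.2% and 65.5% at 0 h, 61.8% and 64.5% at 6 h, 69.3% and 70.4% at 18 h, and 68.0% and 71.8% at 48 h. The 4 libraries of 18 and 48 h all lay above the 4 earlier ones, with an exact permutation p of 0.0762 over the 4 times, before and after adjustment. RPM is a share of the library, and the tRNA references moved the other way, from 66.7% of the reads in both resting libraries to between 83.0% and 91.5% in the stimulated ones. Fewer of these RNAs and more tRNA cannot be told apart from such values, nor can fewer cells that contain an RNA and less of it per cell.

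Per reference, edgeR's quasi-likelihood test was fitted to all 220 references with a mean of at least 1 RPM, and a reference was called at a Benjamini-Hochberg adjusted p under 0.05. All 22 members passed that filter. At 6 h, 16 of the 22 were lower than at rest, against 7.27% of all references, and those 16 were all the references called lower. At 18 h 20 of the 22 were lower, against 10.0%, and at 48 h 21, against 12.3%. No member was called higher in any of these comparisons, nor by DESeq2 or limma, and none had an unadjusted edgeR p under 0.05 in that direction, while 39.1%, 53.2% and 56.8% of all references were called higher. The median log2 fold change of the members was -1.38 at 6 h, -2.11 at 18 h and -1.79 at 48 h. Over all references it was 0.32, 0.48 and 0.50. These 3 comparisons share the resting libraries. With TMM factors in place of the library totals, 17, 21 and 22 members were lower. The median of all references was then 0.06, 0.10 and 0.04, and that of the members -1.64, -2.49 and -2.25. The share of all references called in that fit is not given here.

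**Figure D2:**
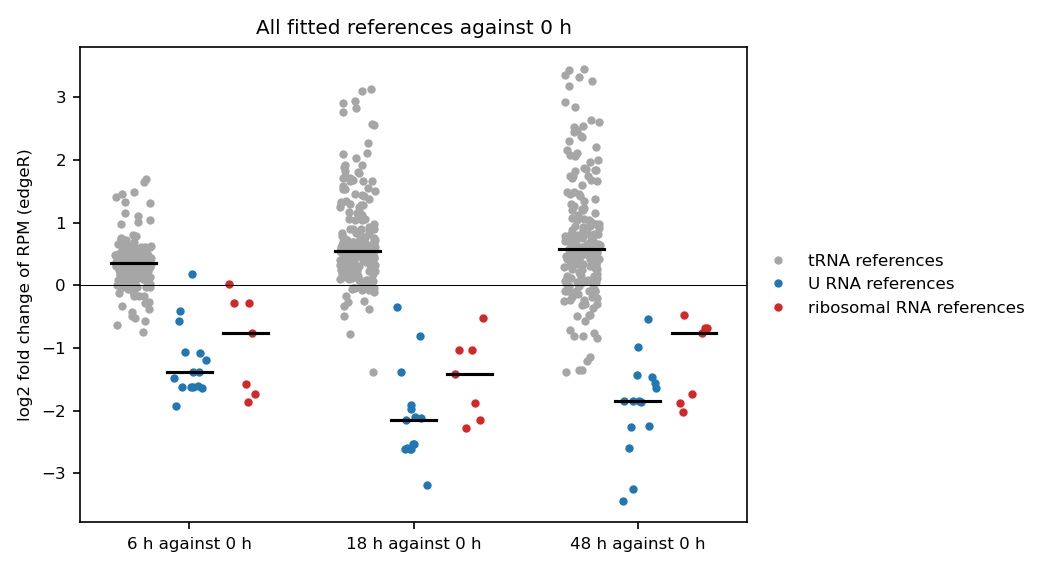
log2 fold change of RPM against 0 h, from edgeR, for the 220 fitted references at 6, 18 and 48 h. Grey points are tRNA references, blue points U RNAs, red points ribosomal RNAs, and black bars the median of each. The medians of both non-tRNA classes lie below 0 at all 3 times and the tRNA medians above it.

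Among the spliceosomal RNAs made by RNA polymerase II, U1 had the lowest fold change at 48 h. Rnu1a1, the main U1 reference, stood at 26385 and 24822 RPM at rest, 5410 and 8068 at 6 h, 3013 and 2621 at 18 h, and 2134 and 2581 at 48 h. Each time lay below all earlier ones, with no overlap. Its log2 fold change was -1.93 ± 0.19 (SE), -3.18 ± 0.20 and -3.44 ± 0.21 at 6, 18 and 48 h, so that it ended 10.9-fold lower (edgeR adjusted p = 5.14e-06).

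The U1b references, variants known in the mouse for their presence in embryonic tissue, were lower too, by less. Rnu1b1 had 2791 and 3218 RPM at 0 h, 971 and 1332 at 6 h, 656 and 723 at 18 h, and 583 and 666 at 48 h. Rnu1b2 had 2738 and 3162 RPM at 0 h, 962 and 1305 at 6 h, 646 and 727 at 18 h, and 582 and 656 at 48 h. The pair therefore ran together in every library. Rnu1b6 had 2008 and 2010 RPM at 0 h, 570 and 870 at 6 h, 472 and 431 at 18 h, and 601 and 755 at 48 h. All 3 were called lower at 6, 18 and 48 h. At 48 h Rnu1b1 was 4.81-fold lower (edgeR adjusted p = 1.34e-05) and Rnu1b6 2.96-fold lower (edgeR adjusted p = 0.000248).

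Rnu1a1 thus took a smaller part of the U1 reads at each later time: 77.8% and 74.7% at 0 h, 68.4% and 69.7% at 6 h, 62.9% and 58.2% at 18 h, and 54.7% and 55.4% at 48 h. Rnu1b6 went the other way, from 5.92% and 6.05% to 7.20% and 7.51%, 9.86% and 9.57%, and 15.4% and 16.2%. In both series the 4 times did not overlap. The ratio of Rnu1a1 to the 3 U1b references together was 3.50 and 2.96 at rest and 1.21 and 1.24 at 48 h. These ratios were chosen after their values were seen and were not tested, and they rest on how the counting assigned reads between similar copies. Summed, U1 was 7.84-fold lower at 48 h than at rest (edgeR adjusted p = 2.95e-06).

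U2 and U5 were also called lower at each time after 0 h. Rnu2-10, the only U2 reference, had 54534 and 49615 RPM at 0 h, 21586 and 27869 at 6 h, 16461 and 10058 at 18 h, and 16321 and 17078 at 48 h. Rnu5g, a U5 gene, had 15404 and 14596 RPM at 0 h, 4442 and 5241 at 6 h, 2493 and 2666 at 18 h, and 2087 and 2868 at 48 h. For both, every stimulated library lay below both resting ones, and the 18 and 48 h libraries below those of 6 h. At 48 h Rnu2-10 was 3.12-fold lower (log2 fold change -1.64 ± 0.23, edgeR adjusted p = 0.000363) and Rnu5g 6.05-fold lower (-2.60 ± 0.16, adjusted p = 5.26e-06). Rnu11, of the minor spliceosome, ran from 403 to 476 RPM at 0 h and from 145 to 174 at 48 h. It missed the threshold at 6 h (log2 fold change -0.41, edgeR adjusted p = 0.0718) and was 2.61-fold lower at 18 h and 2.75-fold lower at 48 h (edgeR adjusted p = 0.000177 and 0.000129).

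U6 had another course. Rnu6 stood at 10745 and 9806 RPM at 0 h, 11544 and 11666 at 6 h, 6201 and 5499 at 18 h, and 5883 and 8268 at 48 h. The 6 h libraries lay above the resting ones and the later libraries below them. Against rest its log2 fold change was 0.18 ± 0.15 at 6 h (edgeR adjusted p = 0.406), -0.81 ± 0.16 at 18 h (0.0025) and -0.54 ± 0.15 at 48 h (0.0153), and from 6 to 18 h it was 1.98-fold lower (adjusted p = 0.00199). The 48 h call was lost without the first 0 h library (-0.47, adjusted p = 0.0791) and without the first 48 h library (-0.31, adjusted p = 0.0604). Beside U1, U6 thus went from 0.317 and 0.295 times the summed U1 RPM at rest to 1.46 and 1.01 times at 6 h, and to 1.51 and 1.77 times at 48 h. The ratio of U2 to U1 went from 1.61 and 1.49 at rest to 4.18 and 3.67 at 48 h. Both ratios were chosen after their values were seen and were not tested.

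**Figure D3:**
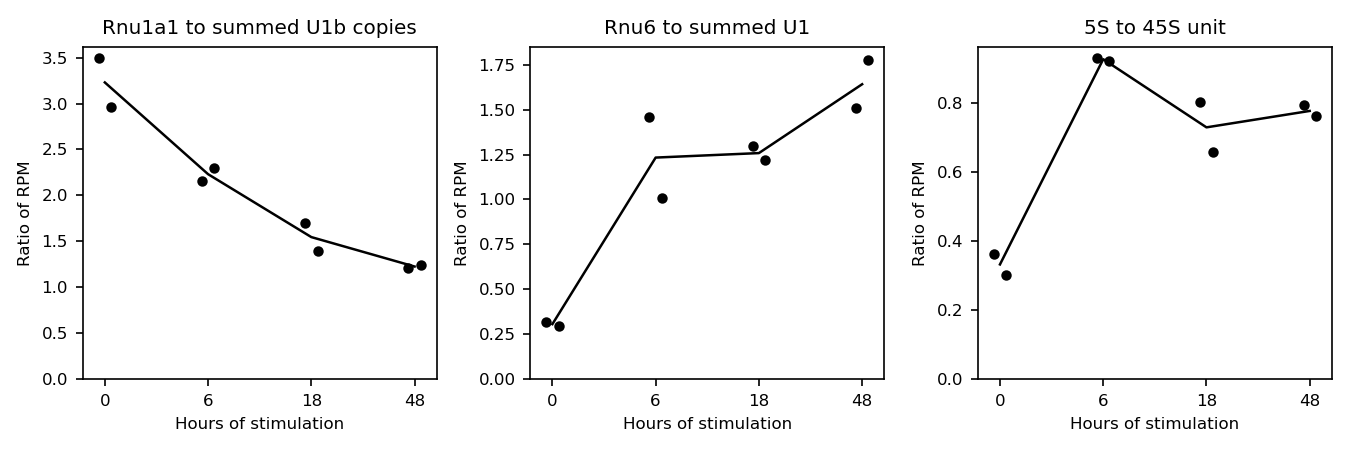
Ratios of RPM by hours of stimulation: Rnu1a1 to the 3 U1b references, Rnu6 to all U1 references, and 5S to the 45S unit. Points are libraries and lines join the means of 2. The first ratio ends at 1.21 and 1.24 at 48 h, the second and the third lie above their resting values in all 6 stimulated libraries.

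The small nucleolar RNAs fell along with the spliceosomal ones, and U3 was the family in which an increase in RPM between 18 and 48 h was called. Rnu3a had 1384 and 1256 RPM at 0 h, 587 and 659 at 6 h, 389 and 310 at 18 h, and 442 and 539 at 48 h. The 4 Rnu3b copies ran from 1082 to 1315 RPM at 0 h, 354 to 432 at 6 h, 157 to 253 at 18 h, and 297 to 372 at 48 h. All 5 were called lower than rest at each time, with both 18 h libraries lowest. Summed, U3 was 5.33-fold lower at 18 h and 3.36-fold lower at 48 h (edgeR adjusted p = 1.19e-05 and 6.02e-05). In RefSeq, Rnu3a is 212 bases long and the Rnu3b copies 215 to 218, which is above the size limit of the RNA used. Whether reads on U3 came from pieces or from longer RNA carried over was not tested. The U3 values, with their increase from 18 to 48 h, may therefore not follow the level of full-length U3.

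From 18 to 48 h, edgeR called 2 of the 22 members higher, Rnu3b1 (log2 fold change 0.76 ± 0.21) and Rnu3b3 (0.77 ± 0.21), both at an adjusted p of 0.0499, against 10.0% of all references. No member was called lower or had an unadjusted p under 0.05 in that direction, and DESeq2 and limma called none lower either. Summed, U3 had a log2 fold change of 0.66 ± 0.18 (edgeR adjusted p = 0.0423). As a share of non-tRNA reads, summed U3 changed by 0.44 ± 0.33 and was not called (edgeR adjusted p = 0.668). Both single copies lost the call with TMM factors (edgeR adjusted p = 0.138), with tRNA reads as library size (0.0592), with the replicate block (0.0798), and without any one library other than the first 18 h one (0.0715 to 0.218). Without the first 18 h library, 6 members were called higher. From 6 to 18 h, 17 of the 22 were lower, against 9.09%, and none was called higher, against 27.3%, or had an unadjusted p under 0.05 in that direction. Without the second 6 h library, 8 members were lower from 6 to 18 h. Over the 4 times together, 20 of the 22 were called by edgeR, against 70.9%.

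Rnu73b, named here as a U RNA and known as a small nucleolar RNA, was the least abundant member. It had 38.1 and 45.3 RPM at 0 h, 13.1 and 23.4 at 6 h, 6.82 and 6.78 at 18 h, and 3.31 and 5.45 at 48 h. The resting libraries lay above the others, and those of 48 h below all others. It was 9.52-fold lower at 48 h (log2 fold change -3.25 ± 0.41, edgeR adjusted p = 0.00022). Its 6 h call (-1.19, adjusted p = 0.0355) was lost without either 0 h library (0.093 and 0.147) and without the first 6 h library (0.253). Rnu7 ran from 171 to 428 RPM, and its replicates lay apart, at 284 and 428 RPM at 0 h and 192 and 369 at 18 h. It was called lower at 48 h only (log2 fold change -0.99, edgeR adjusted p = 0.0226), and the call was lost without the second 0 h library (-0.67, adjusted p = 0.142) and without the first or second 48 h library (0.0798 and 0.106).

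The ribosomal references did not all move alike. Those of the 45S unit, made by RNA polymerase I, were called lower at every time after 0 h, Rs5-8s1 by less than the others. At 48 h the log2 fold change of Rs5-8s1 was -0.76, near the -0.69 of n-R5s146, a 5S reference. Rn45s, Rn28s1 and Rn18s had -2.03, -1.74 and -1.88. Rn45s had 89195 and 94561 RPM at 0 h, 21011 and 29368 at 6 h, 20224 and 17799 at 18 h, and 18483 and 26470 at 48 h. Rn28s1 had 51529 and 55603 at 0 h, 15068 and 20801 at 6 h, 15735 and 13364 at 18 h, and 13263 and 18779 at 48 h. For both, resting libraries lay above all others, and the 48 h libraries overlapped in range with those of 6 and of 18 h. At 6 h Rn45s was already 3.65-fold lower and Rn28s1 2.99-fold lower (edgeR adjusted p = 0.000678 and 0.00083), and at 48 h 4.09-fold and 3.34-fold (adjusted p = 8.73e-05 and 0.000164).

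Rn18s, from 10445 to 12518 RPM at rest and 2421 to 4098 afterwards, was called lower at all 3 times. Rs5-8s1, the 5.8S reference, ran from 2397 to 3400 RPM at rest and from 981 to 1922 later, and was 1.69-fold lower at 48 h (edgeR adjusted p = 0.0091). That call was lost without the second 0 h library (0.0619) and without the first 48 h library (0.07), and its 6 h call (edgeR adjusted p = 0.0146) without the second 0 h library (0.0905) and without the first 6 h library (0.0834). As a part of the reads of the 45S unit, 5.8S was 1.56% and 2.05% at rest and between 2.48% and 4.47% after stimulation, while Rn45s went from 58.1% and 56.9% to between 51.1% and 52.3%. Mature 5.8S is shorter than the size limit of the RNA used and mature 18S and 28S are longer. Whether reads on the latter came from pieces or from longer RNA carried over was not tested.

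5S, the small ribosomal RNA made by RNA polymerase III, was not called at 6 h, and 2 of its 3 references were lower at 18 and 48 h. n-R5s146 had 24456 and 21850 RPM at 0 h, 16291 and 21717 at 6 h, 13104 and 9594 at 18 h, and 12045 and 16726 at 48 h. n-R5s113 had 24407 and 21709 at 0 h, 16219 and 21590 at 6 h, 13072 and 9555 at 18 h, and 12003 and 16656 at 48 h. The second 6 h library lay just under the lower resting one in both. The log2 fold change of n-R5s146 was -0.28 ± 0.22 at 6 h (edgeR adjusted p = 0.338), -1.03 ± 0.22 at 18 h (0.00389) and -0.69 ± 0.22 at 48 h (0.023). Its 48 h call was lost without the first 0 h library (0.0989) or the first 48 h library (0.148), as was that of n-R5s113 (0.1 and 0.148).

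n-R5s136, the third 5S reference, had 6618 and 6659 RPM at 0 h, 5024 and 8487 at 6 h, 5554 and 3700 at 18 h, and 4276 and 5301 at 48 h. Its groups overlapped at 6 h, and it was called in no comparison of RPM (edgeR adjusted p = 0.953, 0.125 and 0.161 against rest). With TMM factors it was called lower at 48 h (-0.93, edgeR adjusted p = 0.0376). With tRNA reads as library size it was called lower at 18 h (-0.96, edgeR adjusted p = 0.036) and 48 h (-0.88, 0.041). DESeq2 with its own size factors also called it lower at 18 h (-1.005, adjusted p = 0.002) and 48 h (-0.99, 0.00186). DESeq2 on library totals and limma called it at neither time. Summed, 5S stood at 0.361 and 0.302 times the 45S unit at rest, 0.930 and 0.922 times at 6 h, 0.801 and 0.656 at 18 h, and 0.792 and 0.760 at 48 h. All stimulated libraries had the higher ratio, which was chosen after its values were seen and was not tested.

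**Figure D4:**
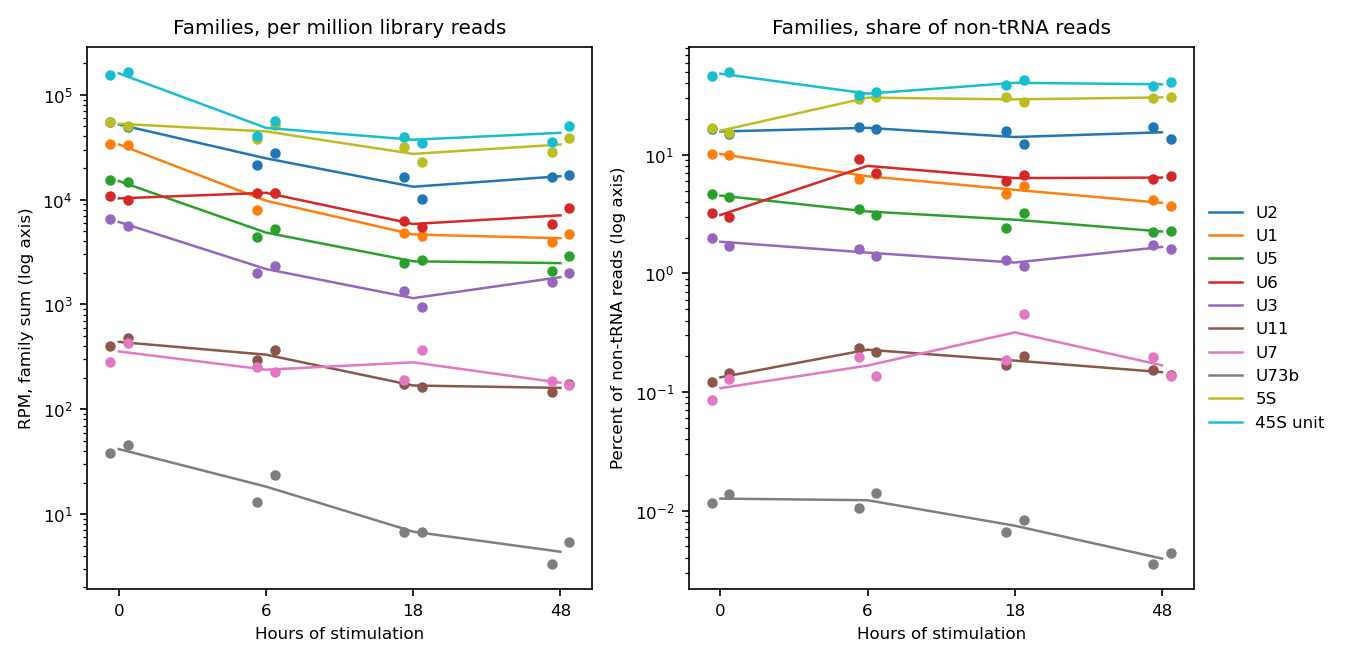
Family sums by hours of stimulation, as RPM (left) and as percent of non-tRNA reads (right), both on log axes. Points are libraries and lines join the means of 2. U1 and U5 lie lower at 48 h than at 0 h in both panels, while U6 and 5S are lower at 48 h on the left and higher on the right.

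The second scale sets each member against the reads on the 22 references alone, so that the tRNA reads no longer enter the value. On it Rnu1a1 went from 7.97% and 7.52% at rest to 4.29% and 4.82% at 6 h, 2.93% and 3.20% at 18 h, and 2.26% and 2.07% at 48 h. Rnu5g went from 4.65% and 4.42% to 2.21% and 2.30% at 48 h. Rnu6 went from 3.25% and 2.97% to 9.16% and 6.97% at 6 h, 6.02% and 6.71% at 18 h, and 6.24% and 6.63% at 48 h. Rnu1a1 and Rnu5g thus held a smaller part of these reads at 48 h than at rest and Rnu6 a larger one, with no overlap. 5S as a family went from 16.8% and 15.2% to 29.8% and 31.0% at 6 h and 30.0% and 31.0% at 48 h, and the 45S unit from 46.4% and 50.3% to 32.0% and 33.6% at 6 h and 37.9% and 40.8% at 48 h. U2 was 16.5% and 15.0% at rest and 17.3% and 13.7% at 48 h, so its groups overlapped.

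With the non-tRNA reads as the library size, edgeR called 2 of the 22 lower and 5 higher at 6 h, 6 lower and 5 higher at 18 h, and 5 lower and 5 higher at 48 h. Of all 220 references, 0.909%, 2.73% and 2.27% were lower and 84.1%, 90.9% and 85.0% higher on this scale, since nearly every tRNA reference counts as higher against a smaller library size. With so many calls an adjusted p is close to the unadjusted one. The spread in this fit was also estimated over all 220 references, so its p-values do not reflect the spread of a member alone. From 6 to 18 h 1 member was higher, Rnu7, against 54.1%, and over the 4 times 8 were called, against 90.0%. Between 18 and 48 h edgeR called none of the 220 references on this scale, and 1 member had an unadjusted p under 0.05. The median log2 change of the members against rest was -0.21, -0.25 and -0.20, beside 1.52, 2.37 and 2.13 over all references.

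The members higher at all 3 times were Rnu6 and the 3 5S references. Rnu6 had log2 changes of 1.38 ± 0.30, 1.03 ± 0.29 and 1.05 ± 0.29 (edgeR adjusted p = 1.22e-05, 0.000622 and 0.000554). n-R5s136, not called on the RPM scale, had 1.17, 1.30 and 1.13 (adjusted p = 0.000219, 3.54e-05 and 0.000314). n-R5s146 had 0.89, 0.80 and 0.90 (adjusted p = 0.002, 0.00427 and 0.00146). Both Rnu6 and n-R5s136 were called whichever library was left out. n-R5s146 and n-R5s113 lost their calls at 6, 18 and 48 h without the second 0 h library (adjusted p = 0.0654, 0.0839 and 0.0552 for n-R5s146, and 0.0668, 0.0844 and 0.0558 for n-R5s113).

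Rnu1a1 was the member lower at all 3 times, with log2 changes of -0.76 ± 0.30, -1.34 ± 0.30 and -1.84 ± 0.31 (edgeR adjusted p = 0.0142, 1.94e-05 and 1.39e-08). Its 6 h call was lost without the first or second 0 h library (0.122 and 0.077) and without the first 6 h library (0.0848), and its 48 h call was kept whichever library was left out. Rnu5g was lower at 18 h (-0.68, adjusted p = 0.0283) and 48 h (-1.01 ± 0.30, adjusted p = 0.00137). The 18 h call was lost without either 0 h library (0.155 and 0.106) and without the first 18 h library (0.221), and the 48 h call with none. Rnu73b was lower at 48 h (-1.68 ± 0.57, adjusted p = 0.00449), a call lost without the second 0 h library (0.0601) and without the first 48 h library (0.0697).

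Most other calls on this scale were lost when single libraries were left out. Rn45s was lower at 6 h (-0.70, edgeR adjusted p = 0.00855; 0.0559 and 0.0905 without the first and second 0 h library). The 4 Rnu3b copies were lower at 18 h (-0.70 to -0.79, edgeR adjusted p = 0.0178 to 0.0324), and none was called without either 0 h library or without the second 18 h library. Rnu1b1 was lower at 48 h (-0.66, adjusted p = 0.0372) and Rnu1b2 (-0.64, 0.0419), and both lost the call without any one of the 4 libraries compared (adjusted p 0.0683 to 0.245). Rnu11 was higher at 6 h (0.77, adjusted p = 0.0275; 0.219 without the first 0 h library and above the threshold without any one of the other three). Rs5-8s1 was higher at 48 h (0.85, adjusted p = 0.008; 0.203 without the first 0 h library and 0.0606 without the first 48 h library). Rnu7 was higher at 18 h than at rest (1.56, adjusted p = 1.3e-05) and than at 6 h (0.93, adjusted p = 0.0165), with shares of 0.186% and 0.451% in the 2 libraries of 18 h. The call against rest was kept whichever library was left out, with log2 changes from 0.79 to 2.06. Against 6 h the change was 0.16 without the second 18 h library (adjusted p = 0.691) and 0.68 without the second 6 h library (0.262).

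**Figure D5:**
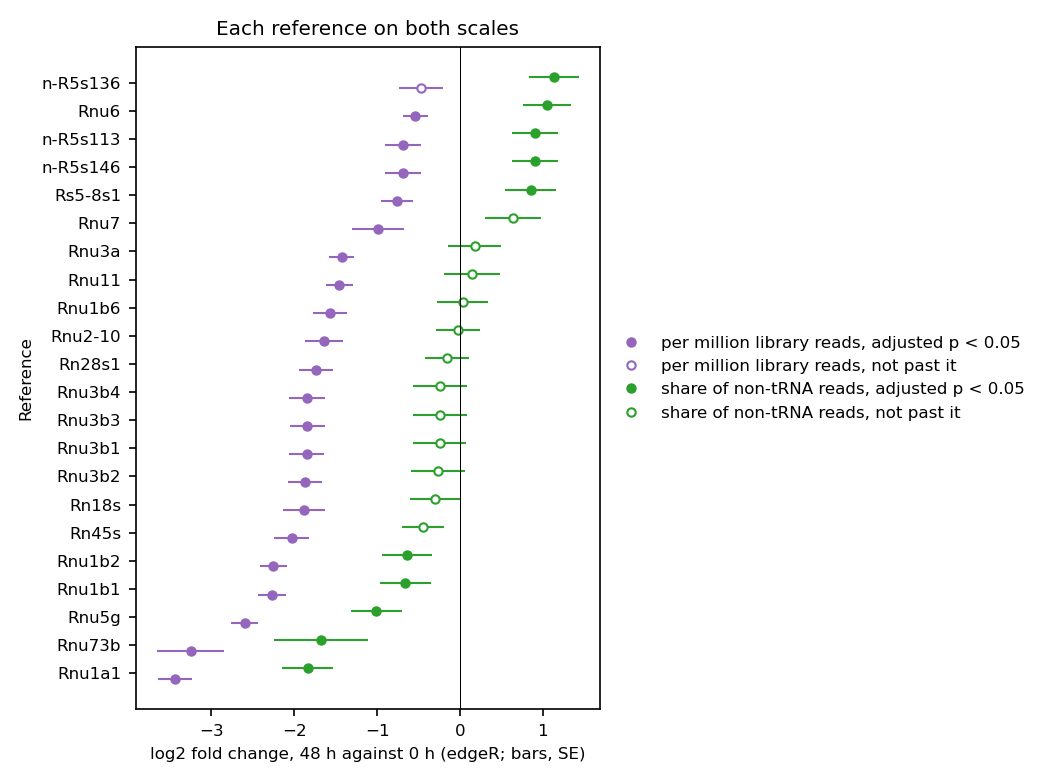
log2 fold change at 48 h against 0 h for each of the 22 references, from edgeR, in RPM (purple) and as share of non-tRNA reads (green). Bars are SE, filled points have an adjusted p under 0.05. All 22 lie below 0 on the first scale, and 5 filled points lie on each side of 0 on the second.

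Levels were also set per base of length, which RefSeq gave for 17 of the 22 as used here. Whether reads rose with length in these libraries was not tested. Near-identical copies were ranked singly, so the ranks depend on how reads were split between them. Summed, the 5S references, each 121 bases long, had a mean of 52849 RPM at rest, and Rnu2-10, at 187 bases, had 52074. Per base, summed 5S thus lay above Rnu2-10 at rest already, and the change of first rank below holds for single references only. Among single references, Rnu2-10 ranked first at rest, at 27847 RPM per 100 bases. Next came n-R5s146 at 19135, n-R5s113 at 19056, Rnu1a1 at 15612 and Rnu5g at 12931. At 48 h n-R5s146 ranked first at 11889 and n-R5s113 second at 11843, followed by Rnu2-10 at 8930 and Rnu6 at 6613. Rnu1a1 moved from rank 4 to rank 7, at 1438 RPM per 100 bases, and Rnu6 from rank 6 to rank 4. At both times n-R5s146 and n-R5s113 did not differ beyond their spread, and at 48 h their lower library, at 9954 and 9920, lay above both of Rnu2-10, at 8728 and 9133.

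The proteins that bind or make these RNAs were looked up in the RNA-seq of the series, which compared cells with a conditional knockout of Trmt61a, whose product methylates adenosine in tRNAs, with wild type cells. The authors' deposited tables list only genes with an unadjusted p under 0.05, at 0, 3, 6 and 48 h. Of 119 genes in 13 lists, such as the Sm ring of the spliceosomal particles and RNA polymerases I and III, the authors' deposited tables list 2, 6, 1 and 22 at these times. At 48 h 21 of the 22 were listed as lower in the knockout, beside 63.4% of all listed genes. The authors' adjusted p was under 0.05 for 5 of them, all lower, beside 12.8% of listed genes called lower and 6.95% called higher. At 0, 3 and 6 h none of these genes was called in the authors' deposited tables, which call 0.781%, 7.06% and 3.24% of their listed genes lower and 0%, 16.1% and 7.97% higher.

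In the authors' deposited table of 48 h the 5 were Sf3b5, of the U2 particle (log2 fold change of knockout over wild type -0.48, adjusted p = 0.00108), Ppih, of the U4/U6.U5 particle (-1.08, 0.00125), Snrpd2, of the Sm ring (-0.38, 0.00541), Polr1d, a subunit shared by RNA polymerases I and III (-0.37, 0.00924), and Lsm4, of the LSm ring that binds U6 (-0.33, 0.0191). By list, the authors' deposited table of 48 h holds 5 of 8 Sm ring genes, 3 of 7 LSm genes, 5 of 11 genes of the U2 particle and 2 of 3 of the U1 particle, all as lower. It also lists as lower 2 of 12 genes of the U4/U6.U5 particle, 1 of 7 of the minor spliceosome, 1 of 3 for U7 and histone ends, 1 of 5 of the 5S particle and 1 of 11 RNA polymerase I factors. The authors' deposited table of 48 h lists none of 15 genes for particle assembly and transport, 9 for small nuclear RNA transcription and 7 of the box C/D and U3 particle. What share of all measured genes is listed is not known, so these counts by list have no background rate beside them. Polr3d, the only one of 21 RNA polymerase III and 5S factors in the authors' deposited table of 48 h, was listed as higher (0.30, adjusted p = 0.426). None of the 22 references is listed by its name in the authors' deposited tables, and no tRNA-seq of knockout cells was analysed here. CT010467.1, a gene typed as ribosomal RNA, is listed as higher in the knockout at 0 h (log2 fold change 1.19, authors' adjusted p = 0.999). Genes typed as small nuclear RNA are listed too. Whether any of these genes matches one of the 22 was not tested.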

How the data were processed

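For tRNA-seq the authors deposited, for each library, read counts per reference and the same reads as RPM, scaled to a library total; totals were recovered as reads divided by RPM. Bowtie2 2.4.1, featureCounts 1.5.0-p3, HISAT2 2.0.5, Trim Galore 0.6.6 and the build mm10 are named, per the submitters' processing notes, with no assay assigned to any of them. The deposited tRNA-seq counts carry BWA, an aligner, in their names, without version or settings. For RNA-seq the authors deposited tables with a log2 fold change, p-values and adjusted p-values, and values per group and library as a signal of scaled reads; 16 columns of values per library were not used. Counts were fitted with edgeR 4.0.16 (quasi-likelihood, library totals as library sizes, mean of at least 1 RPM, all 8 libraries sharing 1 estimate of the spread, Benjamini-Hochberg over 220 references). Shares used the same fit with non-tRNA reads as library size. The tRNA references stayed in that fit and entered its shared estimate of the spread. At 48 h against 0 h the SE of Rnu5g was 0.30 in shares and 0.16 in RPM. Alternatives used DESeq2 1.42.0 and limma 3.58.1. The scripts were tested on simulated data. Replicates differed beyond sampling noise at each time.

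The rule that picks the members by name, the gene lists and the tests were set with earlier results of these data known. Values in every library are given for the 4 ribosomal and 8 other references with the highest mean RPM and the 3 highest and 3 lowest log2 fold changes at 48 h. From RNA-seq, called genes of the lists are named, with up to 4 per list and time. 18 of the 22 members matched RefSeq by symbol or accession; Rnu73b, Rn45s, Rn18s and Rs5-8s1 did not, and the length of Rn28s1 was not used. Figures were drawn with matplotlib 3.10.9.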

Additional observations from a re-analysis of the deposited data

How the results depend on the processing

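Of the sums, the 48 h to 0 h ratio without the member with most reads was 0.365 for the non-tRNA share, 0.243 for U RNA RPM and 1.23 for the ribosomal share of non-tRNA reads, each then at an adjusted p of 0.0381. Leaving out 1 library gave 0.285 to 0.378, 0.256 to 0.299 and 1.06 to 1.12, and 0.301 to 0.421 for ribosomal RNA RPM. The first passed the threshold without the first 6 h or 48 h library, and U RNA also without the first 18 h library.

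Leaving out 1 library, edgeR called 14 to 17 members lower at 6 h, 20 to 21 at 18 h, 16 to 21 at 48 h (against 0 h), 8 to 18 from 6 to 18 h and 18 to 21 over the 4 times. From 18 to 48 h it called 0 to 1 lower and 0 to 6 higher. In shares of non-tRNA reads the ranges were 0 to 2 lower and 2 to 6 higher at 6 h, 1 to 6 and 3 to 6 at 18 h, 2 to 5 and 3 to 6 at 48 h, 0 to 1 higher from 6 to 18 h, 0 to 1 lower from 18 to 48 h, and 3 to 10 over the 4 times. As families, 6, 9 and 10 were lower than at 0 h in RPM, 8 from 6 to 18 h, 1 higher from 18 to 48 h and 9 changed over the 4 times. In shares, U1 and the 45S unit were lower and 3 families higher at 6 h. At 18 h 2 were lower and 3 higher, and at 48 h 3 lower and 2 higher. From 6 to 18 h U7 was higher in shares. For the fits that left out a library or summed families, the share of all references called is not given here.

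With non-tRNA reads as library size, members lower and higher were 2 and 5 at 6 h, 6 and 5 at 18 h, 5 and 5 at 48 h, 0 and 1 from 6 to 18 h, 0 higher from 18 to 48 h, and 8 changed over the 4 times, against 20 by RPM. The direction turned, by construction of the smaller library size, at 6 h for Rnu2-10 (0.10), Rnu3a (0.11), Rnu11 (0.77), n-R5s146 (0.89), n-R5s113 (0.89) and Rs5-8s1 (0.42). At 18 h it turned for Rnu7 (1.56), Rnu6 (1.03), Rnu11 (0.47), n-R5s146 (0.80), n-R5s136 (1.30), n-R5s113 (0.80) and Rs5-8s1 (0.45). At 48 h it turned for Rnu7 (0.64), Rnu6 (1.05), Rnu3a (0.17), Rnu11 (0.15), Rnu1b6 (0.031), n-R5s146 (0.90), n-R5s136 (1.13), n-R5s113 (0.90) and Rs5-8s1 (0.85), and from 6 to 18 h for Rnu1b6 (0.017) and Rs5-8s1 (0.025).

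From 18 to 48 h, members higher in RPM were 0 with TMM factors, 0 with tRNA reads as library size, 5 with DESeq2's own size factors, 7 with DESeq2 on library totals and 1 with the replicate number as a block. In shares, DESeq2 called 1 lower from 6 to 18 h and 14 over the 4 times, and the replicate block called 0 higher from 6 to 18 h. The cause of these differences was not tested, and the share of all references called in these fits is not given here. The labels do not say whether replicate numbers pair the samples, and the main fits did not pair them. Replicate differences correlated at -0.25 to 0.65 between times over all references and at -0.30 to 0.85 over the 22 members. Over all references the highest value was between 18 and 48 h, where the members had -0.30. Over the members it was between 0 and 18 h, where all references had 0.36. Such values do not settle whether the samples were paired. In the sums, the exact permutation test with a replicate block gave an adjusted p of 0.125 throughout. The 2 libraries per time, and relative values with no measure of total RNA, limit what these data can show.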

Other observations

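Genes for other noncoding RNAs appear in the authors' deposited RNA-seq tables of Trmt61a knockout against wild type cells. The mitochondrial ribosomal RNAs mt-Rnr1 and mt-Rnr2 were lower in the knockout at 6 h, with log2 fold changes of -1.70 and -1.57 and adjusted p of 0.00115 and 0.00254 in the authors' deposited table. The authors' deposited table of 3 h lists mt-Rnr1 as well (-1.30, adjusted p = 0.762). None of the 22 references is a mitochondrial RNA, so the tRNA-seq libraries hold no matching value here.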
